A study of Mus musculus with 6 samples.

Results

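DNA methylation genes and their maternal protectors were described as 10 genes, chosen by name: Dnmt1, Dnmt3a, Dnmt3b, Dnmt3l, Uhrf1, Tet1, Tet2, Tet3, Dppa3 and Zfp57. All 10 were rows of the deposited count table of 25239 genes. The table holds 6 Smart-seq3 libraries of mouse germinal vesicle (GV) oocytes, the stage at which meiosis is still arrested and the nucleus is intact. Cumulus-oocyte complexes of female CD-1 mice aged 4 to 6 weeks, an outbred stock, had been injected with water (3 libraries, the controls) or with a mixture of phthalate metabolites, the products the body makes from plasticizers (3 libraries), and both groups were then cultured in maturation medium with serum and follicle-stimulating hormone. The labels give neither the dose nor the composition of the mixture, and name no animal or culture for a library. The protocol speaks of a single oocyte per experimental group, so whether the 3 libraries of a group come from 3 oocytes or from 1 is not settled by the labels. Each group was therefore treated as 1 sample and no test across libraries was made. Every SD (n = 3) and every range with a library left out is between libraries, and that spread may be technical.

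Methylation of cytosine in CpG dinucleotides is written by DNA methyltransferases. Dnmt1, guided to newly replicated DNA by Uhrf1, copies existing methylation, whereas Dnmt3a and Dnmt3b write new methylation, and Dnmt3l, which has no catalytic activity of its own, stimulates them. In growing mouse oocytes Dnmt3a with Dnmt3l lays down the maternal methylome, including the maternal imprints. TET enzymes oxidise methylcytosine, and Tet3 is the form that the oocyte passes to the zygote. Dppa3 (also called Stella or PGC7) shields maternal DNA from oxidation in the zygote and keeps Uhrf1 out of the oocyte nucleus, and Zfp57 is a zinc finger protein that holds imprints by binding their methylated copies.

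Dnmt1 has several annotated starts, and the deposited counts pool all of them. Oocytes are known to use an oocyte-specific first exon that gives a shorter protein. In GENCODE M21 (GRCm38, the assembly called mm10), the start at position 20959888 of chromosome 9 belongs to a transcript with a coding sequence of 1501 codons, and the start at position 20952979 to one with 1620 codons. A coding sequence of 1501 codons is also annotated from the start at position 20952623. The 250 bases before the first 2 of these starts, from the RefSeq promoter table of GRCm38.p6, are shown because they differ in CpG content. They are followed by 1 of 3 windows of Zfp57, another abundant gene, shown because it overlaps no annotated exon as the other windows do, and by that of Tet2, the gene with the lowest mean level of the 10. Each is written 5′ to 3′ on the strand of its gene, with CpG in capitals.
Dnmt1, chr9:20959889-20960138, minus strand: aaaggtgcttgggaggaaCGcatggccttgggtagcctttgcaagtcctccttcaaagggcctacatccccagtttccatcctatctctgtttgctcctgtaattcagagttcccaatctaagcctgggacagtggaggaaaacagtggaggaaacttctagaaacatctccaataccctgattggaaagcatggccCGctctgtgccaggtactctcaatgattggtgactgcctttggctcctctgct
Dnmt1, chr9:20952980-20953229, minus strand: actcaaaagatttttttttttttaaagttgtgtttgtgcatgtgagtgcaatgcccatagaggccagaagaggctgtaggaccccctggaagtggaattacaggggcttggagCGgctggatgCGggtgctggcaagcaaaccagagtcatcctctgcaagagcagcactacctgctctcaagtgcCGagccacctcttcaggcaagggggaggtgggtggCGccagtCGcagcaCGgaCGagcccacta
Zfp57, chr17:37000913-37001162, plus strand: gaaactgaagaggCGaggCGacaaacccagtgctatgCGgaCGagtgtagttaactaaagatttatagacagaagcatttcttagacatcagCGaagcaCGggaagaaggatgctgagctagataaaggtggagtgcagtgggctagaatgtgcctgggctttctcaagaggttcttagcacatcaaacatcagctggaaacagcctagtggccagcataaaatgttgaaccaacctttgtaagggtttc
Tet2, chr3:133544391-133544640, minus strand: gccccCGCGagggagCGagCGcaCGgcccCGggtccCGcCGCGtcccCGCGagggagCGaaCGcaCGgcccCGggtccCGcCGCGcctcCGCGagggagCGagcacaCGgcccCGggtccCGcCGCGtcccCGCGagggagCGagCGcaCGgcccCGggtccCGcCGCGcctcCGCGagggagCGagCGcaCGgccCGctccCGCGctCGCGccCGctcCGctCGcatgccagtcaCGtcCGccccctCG

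The Dnmt1 window at 20959888 held 2 CpG and the window at 20952979 held 7. The window at 20952623, not printed because it overlaps exons of other Dnmt1 transcripts, held 26, and 91.4% of windows held as few or fewer. The median over 32851 promoter windows of the table was 6. The Zfp57 window shown held 6 CpG and those not shown 7 and 3, and the Tet2 window held 51, a count that 100% of windows did not exceed. The motif TATAAA, searched on both strands, was present in the Zfp57 window shown and in none of the other 17 windows of these genes, and 12.4% of all windows hold it. The table had entries for 9 of the 10 genes, all but Dppa3. Which start was used in these oocytes was not measured, so the windows describe the genes and not their transcription here.

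Libraries held 252267 to 300917 gene counts each. Counts from 1 to 20 were even in 69.9% of cases, which points to 2 counts per read pair, and intervals are also given on counts halved to read pairs. Counting intervals cover counting error only. All 12 oocyte markers were detected in both groups, with summed levels from 26556 to 30276 CPM (a gene's counts over the library's gene counts, scaled to a fixed total) in the water libraries and from 25966 to 29438 CPM in the phthalate libraries. Of 21 cumulus and granulosa markers, 12 were at 0 in all 6 libraries, and they summed to 39, 23 and 13 counts for water libraries 1 to 3 and 19, 24 and 10 for phthalate libraries 1 to 3. Of 8 blood and stromal markers, 6 were at 0 throughout. CPM and TPM are shares of a library and not amounts per oocyte.

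The 10 genes took 1.24% of all gene counts, and 91.6% of those counts belonged to Dppa3, Dnmt1, Zfp57 and Tet3. Their summed share was 1.22%, 1.23% and 1.38% in the water libraries and 1.10%, 1.15% and 1.34% in the phthalate libraries. The groups overlapped. Over the summed counts the share was 1.28% (95% exact binomial interval 1.25 to 1.30) with water and 1.20% (1.18 to 1.22) with phthalate, a log2 ratio of -0.09. Relative to the ERCC spike-in RNAs, which had 292 to 753 counts per library, the 10 genes had 4.35, 10.97 and 12.5 counts per ERCC count with water and 6.28, 6.79 and 12.7 with phthalate. The groups overlapped. The log2 ratio of the sums was 0.04, and -0.55 without water library 1, which held 753 ERCC counts, and -0.24 without phthalate library 3.

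Levels were compared between genes as TPM (counts per kilobase of the longest annotated transcript, scaled to the same total in every library). The protectors stood highest. Dppa3 had a mean of 9413 TPM over the 6 libraries (7017 to 10835), and Zfp57 followed with 2786 TPM (2393 to 3401). Dnmt1 came next at 1295 TPM, then Uhrf1 at 434 TPM, Tet3 at 277 TPM and Dnmt3l at 166 TPM. The de novo enzymes had 39.4 TPM for Dnmt3a and 12.8 TPM for Dnmt3b. Tet1 (2.59 TPM) and Tet2 (1.96 TPM) were near the floor. From Dppa3 down to Dnmt3b, each gene lay above the next in every library and the ranges of neighbours did not overlap, whereas Dnmt3b and Tet1, and Tet1 and Tet2, had overlapping ranges. The order depends on the length used: with the median length of a gene's transcripts Dnmt3a moved from rank 7 to rank 5, at 220.0 TPM beside 217 TPM for Uhrf1 and 105 TPM for Dnmt3l, and Tet1 from rank 9 to rank 8, at 29.4 TPM. Dppa3 then stood at 4873 TPM and Zfp57 at 4495 TPM. The top 3 genes were the same with that length.

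**Figure D1:**
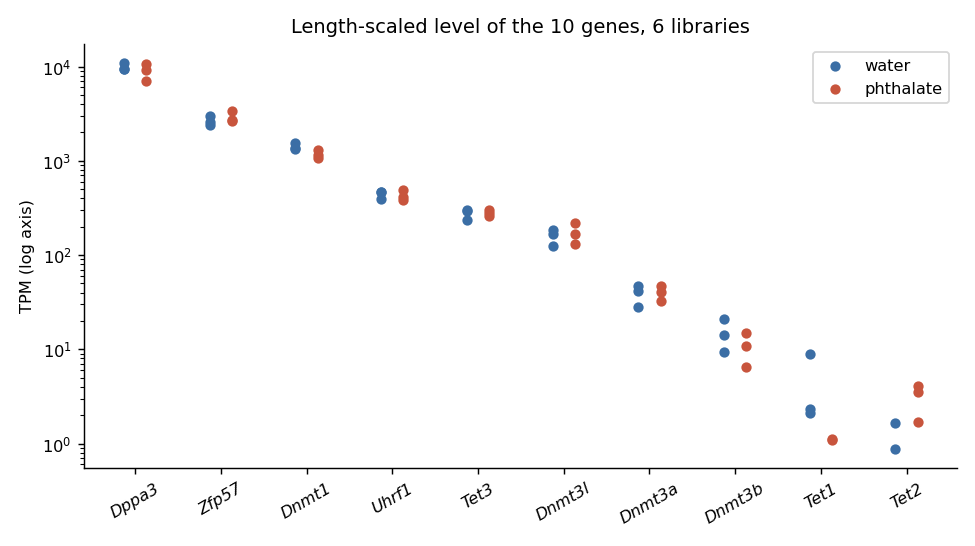
TPM on a log axis for each of the 10 genes, ordered by mean, with 1 point per library (blue for water, red for phthalate). Values of 0 (Tet1 in phthalate library 1 and Tet2 in water library 1) cannot be drawn on a log axis and are left out. The range from Dppa3 at 9413 TPM to Tet2 at 1.96 TPM is far wider than any difference between the groups for the abundant genes.

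Dnmt1, the maintenance methyltransferase (chromosome 9, 20907209 to 20959888, minus strand), was measured at 3581, 3410 and 3986 CPM in the water libraries and at 3294, 2762 and 3052 CPM in the phthalate libraries. All 3 phthalate values lay below all 3 water values. The means were 3659 ± 296 CPM (SD, n = 3) and 3036 ± 266 CPM (SD, n = 3). The summed counts were 3122 and 2485, which gave a log2 ratio of phthalate over water of -0.26 (95% interval -0.33 to -0.18, and -0.37 to -0.15 on read pairs), or 0.837 of the water level. The spread between libraries was 8.08% of the mean with water and 8.77% with phthalate. Counting of read pairs alone gives 4.38% and 4.91%, so the counting interval understates the error of this ratio. Of the 4644 genes that passed the filter on low counts, 5.49% had all phthalate values below all water values, and 23.2% had a ratio at or below that of Dnmt1. Low-count genes spread more widely by counting error alone. Of the 50 genes whose mean count reached 500, 8% had such a ratio and 4% had such a separation. Without phthalate library 2 the ratio was -0.17, and the range with each library left out was -0.31 to -0.17. Groups that do not overlap hold their direction in such a check, so it says nothing of stability.

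Uhrf1, the partner that recruits Dnmt1 (chromosome 17, 56303321 to 56323486, plus strand), had 738, 741 and 624 CPM in the water libraries and 745, 600 and 666 CPM in the phthalate libraries. The highest and the lowest value both belonged to the phthalate group, so the groups overlapped. Its log2 ratio was -0.06 (-0.23 to 0.11). Its spread between libraries, 9.56% of the mean with water and 10.9% with phthalate, was close to what counting of read pairs alone gives (10.0% and 10.5%).

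Dnmt3a, the main de novo methyltransferase of the oocyte (chromosome 12, 3806007 to 3914443, plus strand), had 182, 199 and 120 CPM in the water libraries and 135, 169 and 204 CPM in the phthalate libraries. Water and phthalate values were interleaved, with a log2 ratio of 0.04 (-0.31 to 0.39). Dnmt3l, its cofactor (chromosome 10, 78041947 to 78063622, plus strand), had 137, 99.7 and 148 CPM with water and 131, 105 and 182 CPM with phthalate, which also overlapped. Its log2 ratio was 0.14 (-0.25 to 0.53, and -0.41 to 0.71 on read pairs). Dnmt3l shares 1664 bases with Aire, a gene on the opposite strand that had 13 counts over the 6 libraries. The use of strand in counting is not given in the sources used here, so reads from the shared stretch cannot be assigned. Processed pseudogenes of Dnmt3a, Dnmt3l and Dppa3 are annotated and are not rows of the table.

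Dnmt3b, a de novo enzyme known mainly from the embryo after implantation (chromosome 2, 153649450 to 153687730, plus strand), had 11, 8 and 5 counts in the water libraries and 3, 6 and 8 in the phthalate libraries. It was below the filter, its groups overlapped, and its log2 ratio of -0.43 had an interval from -1.41 to 0.53. Counts this low could not show a difference of that size.

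Tet3, the maternal TET dioxygenase (chromosome 6, 83362373 to 83459084, minus strand), had 1150, 1446 and 1392 CPM in the water libraries and 1296, 1420 and 1284 CPM in the phthalate libraries. The phthalate values lay inside the water range. The means were 1329 ± 157 CPM (SD, n = 3) and 1333 ± 75.3 CPM (SD, n = 3), and the log2 ratio was 0.02 (-0.10 to 0.14, and -0.15 to 0.19 on read pairs). A change of 1.5-fold in either direction lies outside this interval of counting error.

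The other TET genes were barely detected. Tet1 (chromosome 10, 62804570 to 62908996, minus strand) had 4, 4 and 16 counts in the water libraries and 0, 2 and 2 in the phthalate libraries. Its summed counts of 24 and 4 gave a log2 ratio of -2.51 (-4.50 to -0.97, and -5.71 to -0.35 on read pairs), and water library 3 alone held 16 of the 24 counts. Without that library the ratio was -1.51. Tet2 (chromosome 3, 133463679 to 133545139, minus strand) had 0, 2 and 1 counts with water and 4, 2 and 4 with phthalate. Its log2 ratio of 1.81 (-0.15 to 4.31) came from sums of 3 and 10 counts. In CPM neither gene's groups overlapped, Tet1 lower and Tet2 higher with phthalate, but the nearest Tet2 values were 6.65 and 6.78 CPM, each from 2 counts. Without a filter, 4.97% of 10319 genes had all phthalate values below and 4.47% all above the water values. Both genes were below the filter. Without a filter, 19.5% of 10319 genes were at least 1.5-fold lower and 16.8% at least 1.5-fold higher; these shares include the genes that passed and count ratios from 1.5-fold up, smaller than those of Tet1 and Tet2.

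Dppa3, the maternal protector of methylation (chromosome 6, 122626410 to 122630272, plus strand), had the highest CPM of the 10 genes averaged over all 6 libraries, although the mean of Dnmt1 was higher with water and that of Zfp57 with phthalate. It had 3547, 3410 and 3975 CPM in the water libraries and 2501, 3308 and 4016 CPM in the phthalate libraries. Phthalate library 1 was the lowest of the 6 libraries and phthalate library 3 the highest. The spread between libraries was 8.09% of the mean with water and 23.1% with phthalate, where counting of read pairs alone gives 4.39% and 4.70%. The log2 ratio was -0.13 (-0.20 to -0.05), but it was 0.04 without phthalate library 1 and -0.34 without phthalate library 3. The counting interval therefore understates the error of this ratio.

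Zfp57, the imprint-binding zinc finger protein (chromosome 17, 37001163 to 37010635, plus strand), had 2776, 2971 and 3436 CPM in the water libraries and 2906, 3061 and 3987 CPM in the phthalate libraries. The groups overlapped, with means of 3061 ± 339 CPM (SD, n = 3) and 3318 ± 585 CPM (SD, n = 3). The log2 ratio was 0.13 (0.06 to 0.21), and -0.07 without phthalate library 3, so its sign rested on that library. Of the remaining 5 libraries, leaving out any of them kept a positive ratio.

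**Figure D2:**
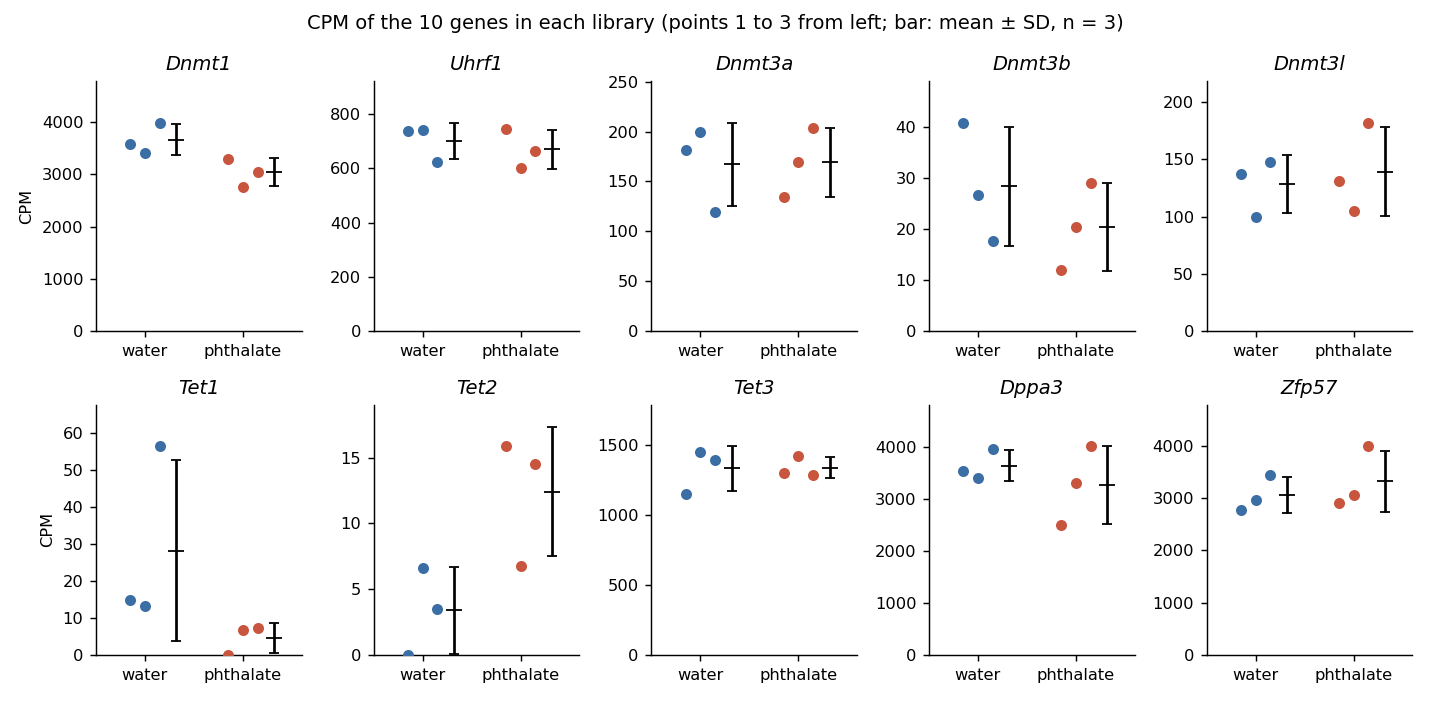
CPM of each of the 10 genes (vertical axis from 0, scaled per gene) for water libraries 1 to 3 (blue) and phthalate libraries 1 to 3 (red), with the mean and SD of 3 libraries in black. Dnmt1 is the abundant gene whose groups do not overlap, and Dppa3 shows the wide phthalate range from 2501 to 4016 CPM.

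Of the 10 genes, 7 passed the filter, and all 7 lay within 1.5-fold: 0 were past that fold in either direction. Among all 4644 genes passing the filter 6.96% were at least 1.5-fold higher and 8.14% at least 1.5-fold lower, 15.1% together. The 7 genes had a median log2 ratio of 0.02 (range -0.26 to 0.14), against 0.01 over all genes that passed, and 4 of the 7 ratios were positive. The groups did not overlap for 1 of the 7, Dnmt1, which was lower with phthalate. Of all genes passing the filter 4.52% had all phthalate values above and 5.49% all below the water values, 10% together. For the other 6 of the 7 genes, leaving out a library could turn the sign of the ratio.

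**Figure D3:**
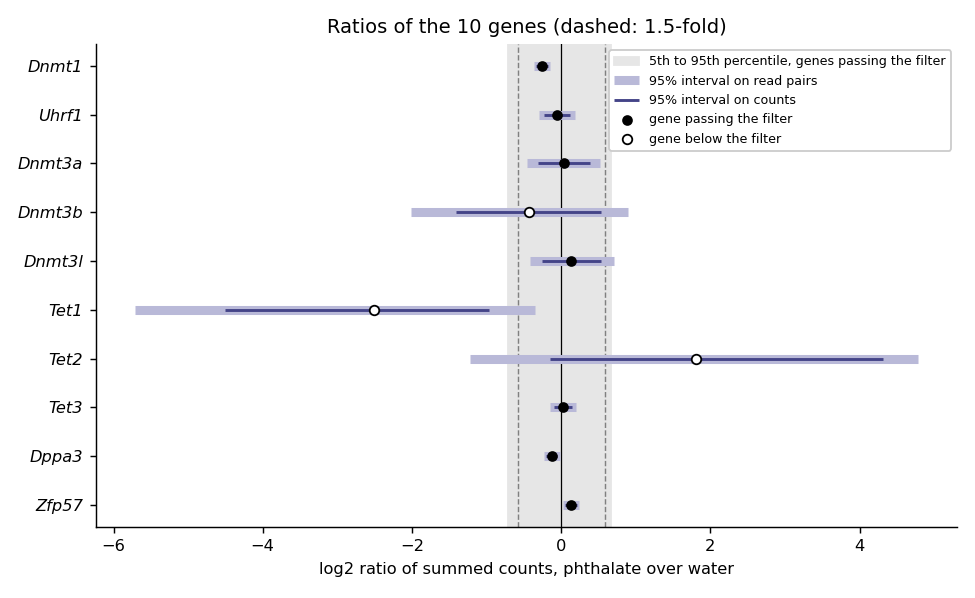
Log2 ratio of summed counts, phthalate over water, for each of the 10 genes, with 95% exact intervals on counts (thin) and on read pairs (thick). Filled points passed the filter on low counts, open points (Dnmt3b, Tet1, Tet2) did not, the grey band spans the 5th to 95th percentile of the 4644 genes that passed (-0.72 to 0.66), and dashed lines mark 1.5-fold. The filled points all lie between the dashed lines.

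Ratios of transcripts within a library do not depend on how libraries are scaled. They were formed from counts per kilobase of the longest transcript, which sets their level. With median lengths Dnmt3l lay below Dnmt3a, so a ratio above 1 for that pair depends on the length. For pairs of single genes the length does not enter the comparison between groups. Uhrf1 per Dnmt1 was 0.338, 0.356 and 0.256 in the water libraries and 0.370, 0.356 and 0.357 in the phthalate libraries, overlapping between groups. Dnmt3l per Dnmt3a ranged from 2.66 to 6.57 with water and from 3.30 to 5.16 with phthalate. Dppa3 per Uhrf1 was 22.6 ± 4.17 (SD, n = 3) with water and 21.4 ± 6.11 (SD, n = 3) with phthalate. Tet3 per Dnmt3a was 7.46 ± 2.51 (SD, n = 3) and 7.19 ± 1.49 (SD, n = 3). In each of these 4 pairs the difference between the group means was smaller than the larger of the SDs between libraries. The writers Dnmt1, Dnmt3a and Dnmt3b together, per summed TET transcripts, stood at 5.99, 4.53 and 5.27 with water and at 4.79, 3.75 and 4.57 with phthalate, and the groups again overlapped. Here the means, 5.26 and 4.37, differed by more than either SD (0.732 and 0.549, n = 3). Dnmt1, at 1295 TPM beside 39.4 and 12.8 TPM for Dnmt3a and Dnmt3b, made up most of the writer sum. Tet3, at 277 TPM beside 2.59 and 1.96 TPM for Tet1 and Tet2, made up most of the TET sum. The ratio is therefore largely that of Dnmt1 to Tet3, and its difference is not separate from that of Dnmt1.

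The ratios of Dppa3, Zfp57 and Tet3 to Dnmt1 were added after the values had been seen. Dppa3 per Dnmt1 was 6.98, 7.05 and 7.03 in the water libraries, a spread of 0.0339 (SD, n = 3), and 5.35, 8.44 and 9.27 in the phthalate libraries, a spread of 2.07 (SD, n = 3). The water values lay inside the phthalate range. Zfp57 per Dnmt1 was 1.75, 1.97 and 1.95 with water and 1.99, 2.50 and 2.95 with phthalate. It was the 1 pair of 8 whose groups did not overlap, with 1.97 and 1.99 as the nearest values. Dnmt1 is the denominator of all 3 added ratios and its own groups did not overlap, so its difference enters this separation. Of single genes that passed the filter, 10% did not overlap, and no such share was formed over pairs of genes. Tet3 per Dnmt1 was 0.173, 0.228 and 0.188 with water and 0.212, 0.277 and 0.226 with phthalate.

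**Figure D4:**
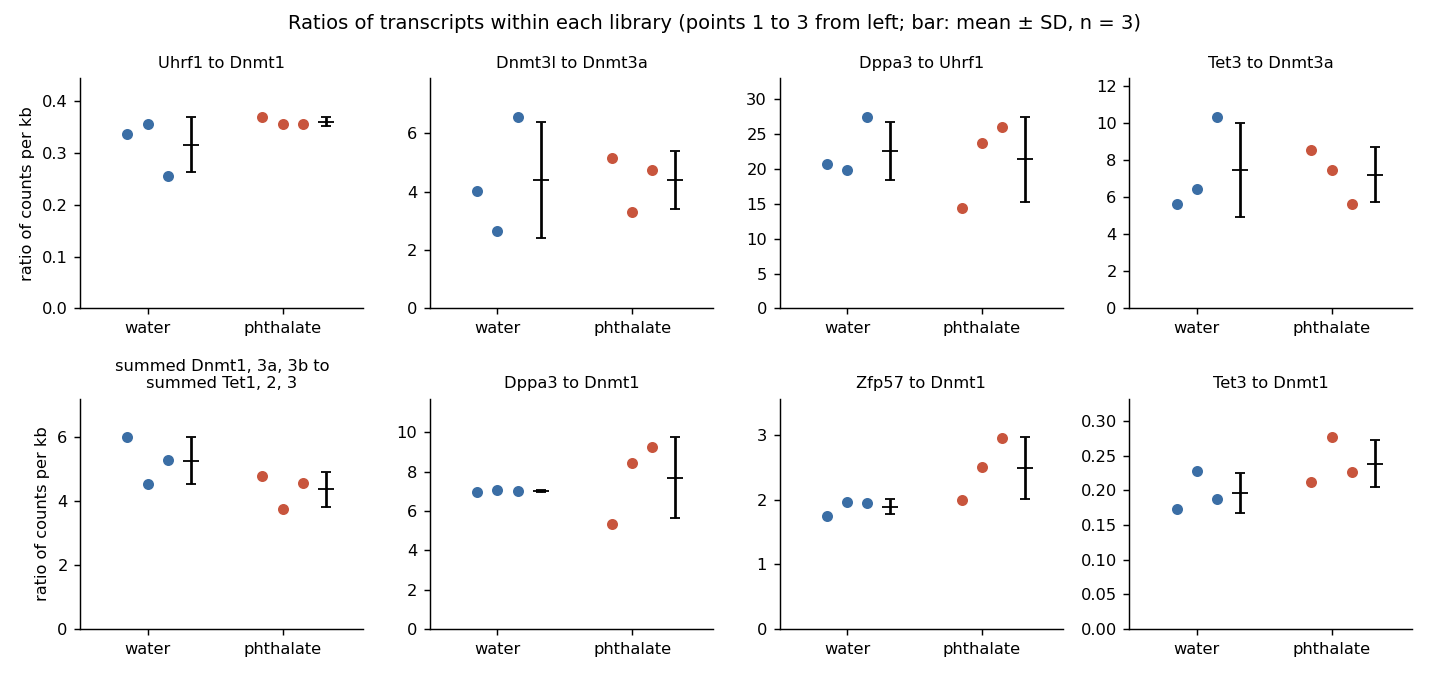
Ratio of counts per kilobase between transcripts of the same library for 8 pairs or sums, for water libraries 1 to 3 (blue) and phthalate libraries 1 to 3 (red), with the mean and SD of 3 libraries in black. The Dppa3 to Dnmt1 values are close together with water (6.98 to 7.05) and spread with phthalate (5.35 to 9.27).

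The 3 genes of the 10 with the most counts did not share a profile over the 6 libraries. For Dppa3 the genes with the most similar log2(CPM + 1) were Pla2g4c (Pearson r = 0.998), Tor1a (0.99) and Jade2 (0.98), for Dnmt1 they were Cnih4 (0.99), C1qbp (0.97) and Srp14 (0.97), and for Zfp57 they were Tmem59 (0.98), Aurkc (0.98) and Fry (0.96). Between the 3 genes themselves r was 0.23 for Dppa3 and Dnmt1, 0.63 for Dppa3 and Zfp57 and -0.11 for Dnmt1 and Zfp57. With only 6 libraries, which differ in depth and group, and 2783 genes compared, 49 genes had r above 0.9 with Dppa3, 18 with Dnmt1 and 15 with Zfp57. The order among the nearest genes is therefore a description only.

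Other genes of the pathway were taken from 7 lists with 59 genes, of which 58 were in the table and 29 passed the filter. The intervals of these genes are given on read pairs. Of these 29, 1 was at least 1.5-fold higher with phthalate and 4 at least 1.5-fold lower, where 6.96% and 8.14% of all genes were. The median log2 ratio was -0.03, with 14 positive and 15 negative. Without phthalate library 1 the number higher was 2 and without phthalate library 2 it was 0, and the number lower ranged from 3 to 6 with a library left out. With a 2-fold threshold 0 of the 29 were higher and 1 lower, where 1.14% and 1.64% of all genes were. Of the 19 genes with a mean count of 20 or more, 2 were at least 1.5-fold lower, where 4.09% of all such genes were. In 3 of the 29 (Setd2, Ehmt1 and Ogt, named after their values were seen) all phthalate values lay below all water values, and in 0 all lay above, where 5.49% and 4.52% of all genes that passed did so.

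Among 5 maintenance partners that passed, 0 were past 1.5-fold in either direction, where 15.1% of all genes that passed were. Pcna (named after its values were seen) had a ratio of -0.64 without phthalate library 3. The most abundant was Usp7, a deubiquitinase that stabilises Dnmt1 and Uhrf1, with a log2 ratio of -0.08 (-0.41 to 0.24). Dmap1, a protein that binds Dnmt1, had 286, 203 and 204 CPM with water and 285, 325 and 284 CPM with phthalate, and a ratio of 0.40 (0.01 to 0.80). Uhrf2, the paralog of Uhrf1, had 0 counts in all 6 libraries, which allows up to 3.58 CPM over their summed depth when 2 counts make a read pair, and Uhrf1 had a mean count of 191.

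Histone enzymes that guide or bar de novo methylation had 1 gene at least 1.5-fold higher and 2 lower of 8 that passed, where 6.96% and 8.14% of all genes were, and a median log2 ratio of -0.32. Each of these 3 genes came within 1.5-fold when some library was left out. Nsd1, which writes the H3K36 dimethyl mark that Dnmt3a binds, was the most abundant, with 223, 359 and 285 CPM with water and 277, 522 and 396 CPM with phthalate. Its groups overlapped, and its ratio of 0.49 (0.15 to 0.84) ranged from 0.26, without phthalate library 2, to 0.70, past 1.5-fold, without water library 2 or phthalate library 1. Nsd2, an enzyme of the same family, had 74.2, 39.9 and 52.9 CPM with water and 75.3, 125 and 61.8 CPM with phthalate, a ratio of 0.71 (-0.13 to 1.47). Phthalate library 2 held 37 of its 73 phthalate counts, and the ratio was 0.35 without it and 0.52 without water library 2. Setdb1, an H3K9 methyltransferase, had 241, 319 and 285 CPM with water and 119, 298 and 167 CPM with phthalate, a ratio of -0.49 (-0.91 to -0.07). Its groups overlapped, and the ratio ranged from -0.24 without phthalate library 1 to -0.93 without phthalate library 2. The genes past 1.5-fold lower, named after their values were seen, were Setd2 and Kdm1a. Setd2, which writes H3K36 trimethylation, had 66.8, 63.1 and 134 CPM with water and 55.5, 54.2 and 47.3 CPM with phthalate. Its ratio was -0.73 (-1.54 to 0.08), and -0.29 without water library 3, which held 38 of its 75 water counts. Kdm1a, an H3K4 demethylase, had a ratio of -0.67 (-1.62 to 0.32), which was -0.38 without phthalate library 2 and -0.55 without water library 3. Ehmt1 lay within 1.5-fold over the 6 libraries but had a ratio of -0.64 without water library 3.

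In the list of base excision and TET regulators, 0 of 7 genes that passed were at least 1.5-fold higher and 1 was lower, where 6.96% and 8.14% of all genes were. That gene was Dcaf1, the adaptor of a ubiquitin ligase that acts on TET proteins in oocytes, with 167, 96.4 and 84.6 CPM in the water libraries and 63.4, 40.7 and 90.9 CPM in the phthalate libraries. Its log2 ratio was -0.81 (-1.59 to -0.13), and phthalate library 3 overlapped the water range. The ratio was -0.49 without water library 1 and -0.52 without phthalate library 2, both within 1.5-fold. Ddb1, the core subunit of the same ligase and the most abundant gene of the list, had 468, 415 and 388 CPM with water and 492, 634 and 346 CPM with phthalate. Its groups overlapped, and its ratio of 0.24 (-0.05 to 0.54) was 0.02 without phthalate library 2. Parp1 (named after its values were seen) lay within 1.5-fold over the 6 libraries but had a ratio of -0.74 without water library 2. The glycosylase Tdg, which removes oxidised methylcytosine, had 0 counts in all libraries. A processed pseudogene, Tdg-ps, is annotated, and how the counting treated reads that fit both is not given in the sources used here.

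Of the imprint protectors and boundary factors, all 5 genes that passed lay within 1.5-fold over the 6 libraries. Of all genes that passed, 15.1% were past that fold in either direction. Arid4b (named after its values were seen) had a ratio of -0.64 without phthalate library 2. Trim28, the corepressor through which Zfp57 acts, was the most abundant, with a log2 ratio of -0.04 (-0.53 to 0.47). Of 9 methyl-CpG readers only Mbd3 passed the filter, with 0.16 (-0.58 to 0.90), and Zbtb4 and Zbtb38 had 0 counts throughout. The other methyltransferases of the family were represented by Trdmt1, a transfer RNA methyltransferase, with 4 counts in phthalate library 2 and 0 elsewhere.

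The S-adenosylmethionine cycle, which supplies the methyl group, had 3 genes that passed the filter. Of these, 0 were at least 1.5-fold higher and 1 was lower, where 6.96% and 8.14% of all genes were. Mat2a (named after its values were seen) had summed counts of 55 with water and 56 with phthalate, a log2 ratio of 0.10 (-0.74 to 0.88). Mat2b, the regulatory subunit of the synthetase, was the most abundant pathway gene outside the 10, with 850, 1100 and 1117 CPM with water and 547, 817 and 1033 CPM with phthalate, a log2 ratio of -0.33 (-0.54 to -0.12). The groups overlapped, and the ratio ranged from -0.12 without phthalate library 1 to -0.60, past 1.5-fold, without phthalate library 3. Mat1a, a catalytic subunit best known from liver, had 193, 103 and 91.6 CPM with water and 55.5, 30.5 and 94.6 CPM with phthalate, a ratio of -1.08 (-1.86 to -0.38), the lowest of the 29. Phthalate library 3 again lay inside the water range. With each library left out the ratio ranged from -1.63, without phthalate library 3, to -0.71, without phthalate library 2 or water library 1.

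**Figure D5:**
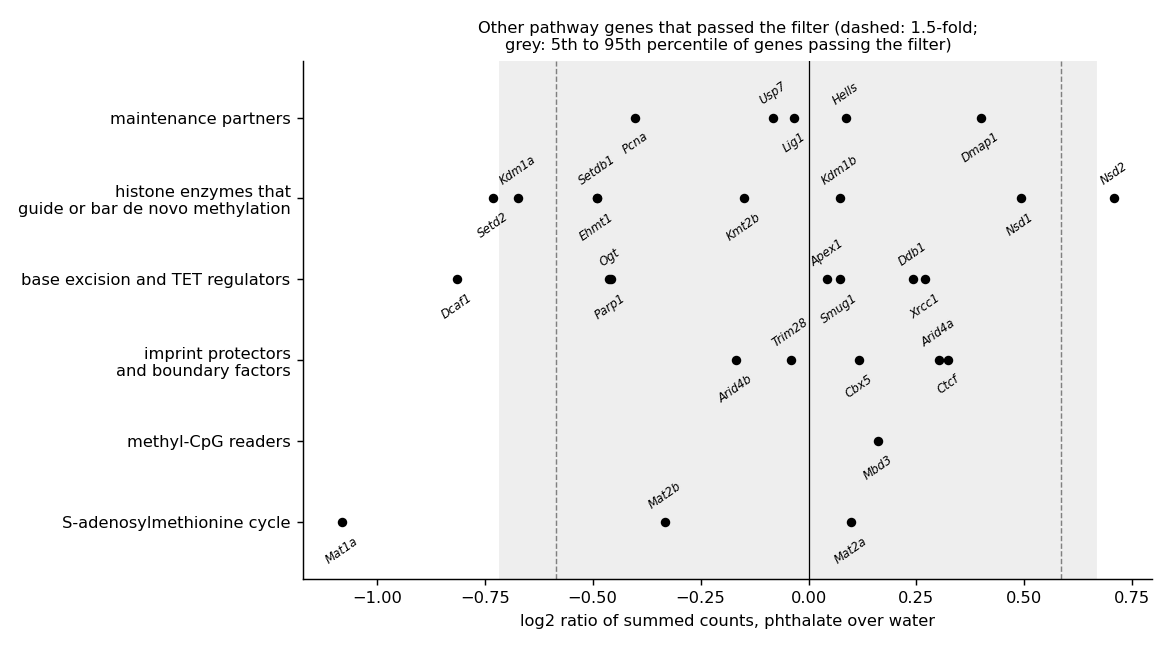
Log2 ratio of summed counts, phthalate over water, for the 29 other pathway genes that passed the filter, 1 row per list. Dashed lines mark 1.5-fold and the grey band spans the 5th to 95th percentile of all 4644 genes that passed, so Nsd2 on the right and Mat1a, Dcaf1, Setd2 and Kdm1a on the left are the 5 genes past the dashed lines.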

How the data were processed

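The deposited table gives raw counts for 25239 genes, named by symbol, plus 92 ERCC spike-ins, per the file headers. Its values are whole numbers that the authors had not scaled. The submitters' processing notes name cutadapt, Trimmomatic, HISAT2, DESeq2 and the build mm10. The counting tool, annotation, use of strand and of molecular identifiers are not given in the sources used here. Libraries were grouped by their titles, with 3 per group and 252267 to 300917 gene counts each.

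For each gene, counts were summed per group and divided by totals scaled by TMM, run in edgeR 4.0.16 under R 4.3.3. The log2 ratios carry no pseudocount. Where a sum was 0, 3 counts stood in for it, and no ratio was formed when both sums were at or under 3. Intervals are 95% Clopper-Pearson intervals of 2 counts given their sum. Low counts were filtered with filterByExpr of edgeR, at its settings of 10 for the count and 15 for the total. CPM used unscaled totals. TPM used lengths from GENCODE M21, which matched 24366 symbols. The ratio code was checked on simulated counts.

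The genes and lists were chosen with earlier results of these data known. Named pathway genes were the most abundant of each list and the 3 furthest from 0 on either side among those with a mean count of at least 20. For the 3 of the 10 genes with the most counts, the 3 most correlated genes were named. Alternatives were other scalings (total counts, DESeq2 1.42.0 size factors, totals without Rn45s), library means, other filters and fold thresholds, other lengths, ERCC totals and each library left out. Read-pair counts, the ratios of Dppa3, Zfp57 and Tet3 to Dnmt1, and the ERCC and single pathway gene values with a library left out were added after seeing the data.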

Additional observations from a re-analysis of the deposited data

How the results depend on the processing

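Across 246 recomputed values, 227 stayed within the counting interval, the spread between libraries or 1.5 times the count that served as tolerance, 19 did not, and 0 ratios past 1.5-fold changed sign. Of the 10 genes only Tet1 and Tet2 had such a ratio. Their groups did not overlap and so hold their direction when a library is left out, and the 0 says nothing of stability. All other scalings, and library means in place of sums, left each of the 10 ratios inside its interval. For Dnmt1 the log2 ratio was -0.27 with total gene counts. With each library left out, log2 ratios ranged from -0.31 to -0.17 for Dnmt1, -0.34 to 0.037 for Dppa3, -0.066 to 0.23 for Zfp57, -0.13 to 0.05 for Uhrf1, -0.16 to 0.21 for Dnmt3a, -0.16 to 0.34 for Dnmt3l, -0.80 to -0.10 for Dnmt3b, -2.97 to -1.51 for Tet1, 1.25 to 2.78 for Tet2 and -0.09 to 0.10 for Tet3. The median of the 7 genes that passed had its lowest value, -0.16, without phthalate library 3 and its highest, 0.055, without phthalate library 1.

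Without a filter 1 of the 10 genes was past 1.5-fold higher (Tet2) and 1 lower (Tet1), since genes with few counts then enter. Of the other pathway genes, 8 were higher and 6 lower of 51 without a filter, where 16.8% and 19.5% of all genes with a ratio were. With a 2-fold threshold 0 were higher and 1 lower (1.14% and 1.64% of all genes), and with a mean count of at least 20 the number lower was 2 (4.09% of all such genes were). Leaving out a library gave 0 to 2 higher and 3 to 6 lower. In the order by level, 4 of 10 genes kept their rank with median transcript length and 4 without length scaling. The cause of the changes on leaving out a library was not tested. The share of counts in the 10 genes differed by -0.09 on the log2 scale, and by 0.04 per ERCC count, which ranged from -0.55 to 0.32 with each library left out and was -0.55 without water library 1. No paired analysis was possible because the labels tie no library to an animal or oocyte, so a shared number pairs nothing. Whether a group holds replicate oocytes is not settled by the labels. At this depth, Dnmt3b, Tet1 and Tet2 had intervals that reached past 1.5-fold, as did Dnmt3l on read pairs.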

Other observations

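Pathway genes below the filter on low counts were not part of the comparison above. In the S-adenosylmethionine cycle, Ahcy, which breaks down the product that inhibits methyltransferases, had 3, 8 and 0 counts in the water libraries and 0, 11 and 16 in the phthalate libraries. Its relative Ahcyl1 had 0, 4 and 4 counts with water and 6, 12 and 4 with phthalate (14.5 and 14.1 CPM are the nearest values of the groups), and Gnmt, which consumes surplus S-adenosylmethionine, had 2, 2 and 0 against 6, 2 and 4. The log2 ratios were 1.37 (95% interval on read pairs -0.18 to 2.96), 1.53 (-0.22 to 3.64) and 1.66 (-0.83 to 5.00), and each interval includes 0. These 3 genes were picked after their values were seen, and 16.8% of the 10319 genes with a ratio were at least 1.5-fold higher. That share includes genes that passed the filter and counts ratios from 1.5-fold up, smaller than those of these 3 genes. The groups of Ahcyl1 did not overlap, and 4.47% of the 10319 genes had all phthalate values above all water values.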
